A study of Mus musculus with 76 samples.

Results

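The nuclear genes for the proteins of the mitochondrial ribosome were followed from the mouse oocyte to the extraembryonic ectoderm (ExE) of the E6.5 embryo, in wild type (WT) and in Ezhip maternal knockout (matKO) material. Members were taken by symbol, as all genes whose name is Mrpl or Mrps followed by a number and at most 1 letter. This gave 77 of the 48320 genes shared by the 4 count tables: 50 of the large subunit, 26 of the small subunit, and Mrps36, a gene of this naming scheme whose product belongs to the alpha-ketoglutarate dehydrogenase complex. The study asked how loss of Ezhip from the mother affects early development, in 76 libraries of polyA RNA that each came from a single oocyte, embryo or ExE piece. The Ezhip protein holds back PRC2, the Polycomb enzyme complex that methylates histone H3.

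Oocytes comprised 3 WT and 4 matKO libraries, all labelled female. At the 2-cell stage there were 11 WT embryos (5 female, 6 male) and 12 matKO embryos (6 female, 6 male). Blastocysts comprised 14 WT (6 female, 8 male) and 14 matKO (7 female, 7 male) libraries, and ExE 10 WT (6 female, 4 male) and 8 matKO (5 female, 3 male). No strain, cross, litter, mother or allele is given in the labels used here, nor the zygotic genotype of the matKO embryos. Libraries of a group may therefore come from the same mother, and p-values rest on the spread from 1 library to the next. A level is in counts-per-million (CPM), scaled on all 76 libraries together. Where 3 levels are given for a group of more than 5 libraries, they are the lowest, the median and the highest. A gene is called changed at an edgeR quasi-likelihood p, adjusted over all genes tested, under 0.05, and errors on log2 values are standard errors.

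Mitochondrial ribosomes translate the proteins encoded in mitochondrial DNA, which are core parts of the respiratory chain and of ATP synthase. Their ribosomal RNA comes from the mitochondrial genome, while every ribosomal protein is encoded in the nucleus and imported. Some of these proteins descend from bacterial ribosomal proteins, and others were added in mitochondria. Oocytes carry a large store of mitochondria that is divided among the cells of the cleaving embryo. The 77 genes hold 46 bacterial homologues (30 of the large and 16 of the small subunit) and 30 mitochondria-specific proteins (20 large, 10 small). They lie on 17 chromosomes and none is on the X.

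Sequencing depth ranged from 5273706 to 26484630 counts per oocyte library, 1049224 to 14127560 per 2-cell embryo, 4061206 to 31985958 per blastocyst and 2736211 to 26674537 per ExE piece. The targeted gene followed its labels where it is expressed: Ezhip was at 818 to 1280 CPM in WT oocytes and 0.103 to 0.471 in matKO oocytes, and at 30.3 to 267 CPM in WT and 0 to 13.8 in matKO 2-cell embryos. All 37 genes of the mitochondrial chromosome had 0 counts in every library, so the RNA made from mitochondrial DNA was not analysed here. Of the 77 members, 76 were tested in every comparison. Mrpl53 had 0 counts in all 76 libraries; 88.0% of its exon bases in the annotation also belong to the same-strand gene Gm42688.

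Some libraries stood apart from others of their group. At the 2-cell stage, the 7 matKO embryos with library identifiers 42 to 48 had summed 2-cell stage markers of 498 to 1244 CPM against 98.5 to 212 in the 5 matKO embryos with identifiers 37 to 41, and 21.2 to 300 in WT. The 3 WT embryos with identifiers 25 to 27 had 10.1 to 13.2 CPM of cumulus and granulosa cell markers, and the other 8 WT embryos 143 to 1197. A single matKO 2-cell embryo (female replicate 4) had 2202 CPM of macrophage markers. In ExE every WT library carries the identifier prefix D1042C and every matKO library D707T, which leaves no way there to separate genotype from prefix: the 2 cannot be told apart. The labels used here give no meaning for the prefixes.

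The upstream sequences of 4 members on which the results below turn are shown first, to set genes that moved at different steps side by side. Each run is the 250 bases upstream of the RefSeq transcription start (GRCm38.p6), written 5′ to 3′ on the gene's strand. Mrpl17 (chr7:105811088-105811337, minus strand) and Mrpl22 (chr11:58171414-58171663, plus strand) were higher in matKO blastocysts, Mrpl34 (chr8:71464676-71464925, plus strand) was higher in matKO ExE, and Mrpl36 (chr13:73330759-73331008, plus strand) had the largest rise from the 2-cell stage to the blastocyst. Capitals mark matches, on either strand, to the NRF1 motif GCGCANGCG, the ETS motif CCGGAAG or the YY1 motif ATGGCGG.
Mrpl17: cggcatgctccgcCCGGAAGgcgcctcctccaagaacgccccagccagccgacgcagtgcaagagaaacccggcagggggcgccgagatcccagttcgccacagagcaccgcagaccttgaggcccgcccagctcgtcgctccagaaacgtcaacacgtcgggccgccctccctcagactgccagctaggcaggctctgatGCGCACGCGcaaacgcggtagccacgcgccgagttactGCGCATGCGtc
Mrpl22: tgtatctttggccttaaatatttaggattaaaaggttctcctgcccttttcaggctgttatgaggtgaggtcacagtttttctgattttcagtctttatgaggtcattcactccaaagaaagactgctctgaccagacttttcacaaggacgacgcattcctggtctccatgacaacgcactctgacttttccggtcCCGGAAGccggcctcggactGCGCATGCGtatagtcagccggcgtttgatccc
Mrpl34: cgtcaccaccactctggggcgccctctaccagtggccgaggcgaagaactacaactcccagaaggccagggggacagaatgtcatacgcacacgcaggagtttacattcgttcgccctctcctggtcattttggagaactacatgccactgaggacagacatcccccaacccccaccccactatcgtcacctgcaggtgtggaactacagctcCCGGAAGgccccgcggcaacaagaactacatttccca
Mrpl36: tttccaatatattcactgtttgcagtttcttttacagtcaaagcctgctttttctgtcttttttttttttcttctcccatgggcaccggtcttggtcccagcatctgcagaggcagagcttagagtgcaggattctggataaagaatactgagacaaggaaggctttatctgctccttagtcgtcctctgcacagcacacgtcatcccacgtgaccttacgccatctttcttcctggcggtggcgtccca
Mrpl17 holds NRF1 matches 49 and 11 bases and an ETS match 237 bases before the start site, each counted from its first base. Mrpl22 holds an ETS match 53 and an NRF1 match 33 bases before the start. Mrpl34 holds an ETS match 37 bases before it, and Mrpl36 holds none of the 3 motifs in this stretch. None of the printed matches overlap one another. RefSeq promoter entries of 300 bases (250 upstream and 50 downstream) were matched for 68 of the 77 members, with 74 entries in all. NRF1 matches lay in 21.6% of the members' entries and 6.25% of all 32851 entries, ETS matches in 33.8% and 8.86%, and YY1 matches in 17.6% and 4.05%. At least 1 of the 3 was present in 56.8% of the members' entries and 16.6% of all entries. The E-box CACGTG (9.46% and 7.15%) and CCAAT (40.5% and 37.4%) had similar shares in both, and TATAAA was rarer among the members (6.76% and 13.6%). The members' entries were also richer in G and C, with a median of 58.5% against 52.7%. A match describes letters in this window and is no evidence of binding.

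Most members were lowest in 2-cell embryos and highest in blastocysts. Among the 76 detected members, the WT median was lowest at the 2-cell stage for 46, in oocytes for 21 and in ExE for 9, and never in blastocysts. It was highest in blastocysts for 40, in ExE for 23, in oocytes for 11 and at the 2-cell stage for 2. Per length, the median member stood at 25.8 CPM per kilobase in the WT oocyte, 16.1 at the 2-cell stage, 48.6 in the blastocyst and 50.2 in the ExE. The spread of single members between WT libraries was widest at the 2-cell stage, with a median coefficient of variation of 48.6% against 20.8% in oocytes, 25.9% in blastocysts and 36.4% in ExE. In these libraries, which hold different cell types, fewer cells of a type and less RNA per cell cannot be told apart.

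**Figure D1:**
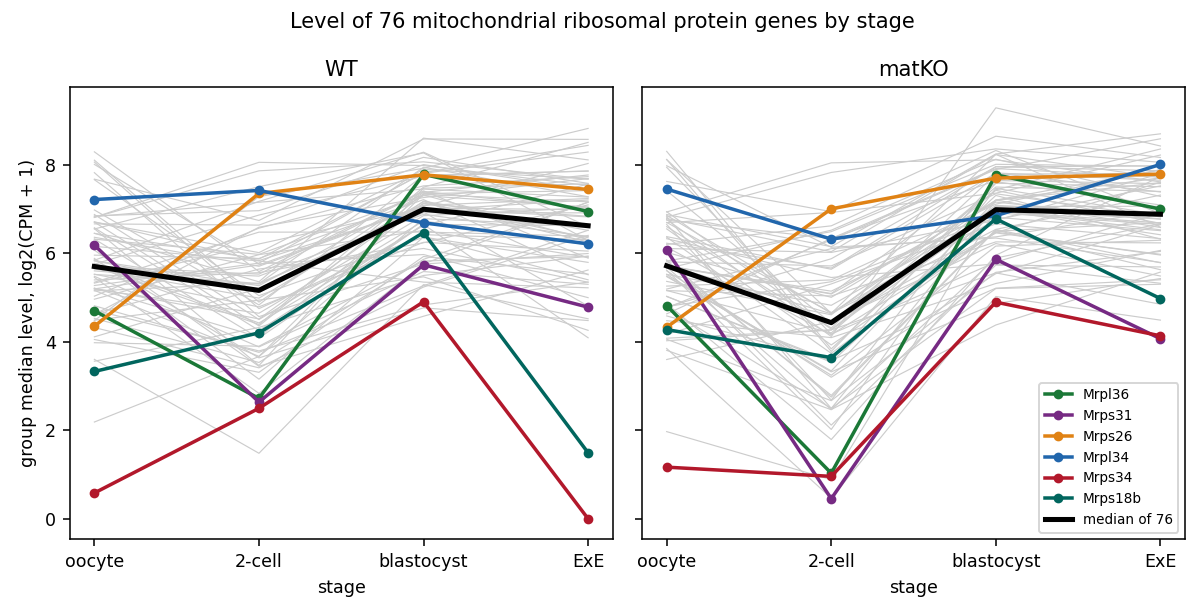
Median level of each of the 76 detected members by stage, as log2(CPM + 1) on the vertical axis, in WT (left panel) and matKO (right panel) libraries. Grey lines are single members, coloured lines are 6 named ones and the black line is the median of all 76; in WT most lines dip at the 2-cell stage and Mrps34 and Mrps18b drop in ExE.

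The order of the members per length changed most around fertilization. Across the 76 members, WT group medians per length had a Spearman correlation of 0.61 between oocyte and 2-cell embryo, 0.82 between 2-cell embryo and blastocyst, and 0.84 between blastocyst and ExE, where the points share libraries and gene models. In oocytes the top 2 were Mrpl32, a zinc-binding large-subunit protein cleaved on import (254 ± 62.3 CPM per kilobase, SD, n = 3), and Mrpl14 (252 ± 71.8), and their ranges overlapped. At the 2-cell stage Mrpl34 led (315 ± 98.2, n = 11), followed by Mrpl40 (270 ± 135). Mrpl42 was first in blastocysts (349 ± 91.3, n = 14) and in ExE (574 ± 276, n = 10), ahead of Mrpl18 (284 ± 58.5) and Mrps16 (337 ± 64.3), with overlapping ranges in both. The lowest ranks were held by Mrps34 and Mrpl19 in oocytes, Mrps5 and Mrpl1 in 2-cell embryos, Mrpl33 and Mrps5 in blastocysts, and Mrps34 and Mrps18b in ExE. Neighbours in the order overlapped in all pairs at the 2-cell and blastocyst stages, in all but 1 in ExE (Mrps18b above Mrps34) and in all but 4 in oocytes.

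From WT oocyte to WT 2-cell embryo, 13 members rose and 25 fell, out of 76. All genes tested gave 42.7% called, 22.1% higher and 20.6% lower. The members' median log2 change was -0.42, against 0.07 over all genes. The division was similar in the 2 subunits: 8 of 49 tested large-subunit genes rose and 14 fell, and 5 of 26 small-subunit genes rose and 10 fell. Of the bacterial homologues 5 rose and 15 fell, and of the mitochondria-specific proteins 8 rose and 9 fell. Without the 3 WT embryos with identifiers 25 to 27 the split was 9 higher and 37 lower, with a median of -1.004 against -0.20 over all genes, of which 42.9% were called.

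The falls were led by Mrps31 and Mrps25, mitochondria-specific proteins of the small subunit, and Mrpl14, a bacterial homologue at the face where the subunits meet. Mrps31 was at 68.3, 71.9 and 85.6 CPM in the 3 WT oocytes and at 0.265, 5.22 and 13.8 (lowest, median, highest) in the 11 WT 2-cell embryos. Every embryo was below every oocyte, and the log2 change was -3.92 ± 0.61 (adjusted p = 2.12e-07). Mrps25 went from 208 to 278 CPM in oocytes to 7.58, 22.8 and 71.2 in embryos (-3.21 ± 0.30, adjusted p = 2.53e-14). Of its exon bases 69.8% also belong to Nr2c2 on the opposite strand. No source used here says how reads shared by such genes were assigned. Mrpl14 went from 162 to 290 CPM to 11.03, 25.9 and 37.96 (-3.11 ± 0.40, adjusted p = 1.58e-09). These groups did not overlap either. Mrps36, the dehydrogenase component, also fell (-2.13).

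Other members rose at the same step. Mrps26, a mitochondria-specific small-subunit protein, was at 6.62 to 25.03 CPM in WT oocytes and at 93.1, 163 and 395 in WT 2-cell embryos (3.60 ± 0.48, adjusted p = 3.79e-09). Mrpl20, homologue of a bacterial protein that binds early in large-subunit assembly, was at 21.3 to 22.8 CPM and then at 116, 155 and 318 (3.17 ± 0.47, adjusted p = 7.64e-08). Mrpl43, a mitochondria-specific large-subunit protein, was at 30.5 to 32.6 CPM and then at 63.4, 94.1 and 323 (2.15 ± 0.57, adjusted p = 0.00164). All 3 had every embryo above every oocyte. Without WT embryos 25 to 27 their changes were 2.99, 2.55 and 1.21, and Mrpl43 had an adjusted p of 0.0489. In total 20 members had all embryos below all oocytes and 11 had all embryos above. Such separation was not counted over all genes, and with 3 oocytes these counts only describe the members.

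From WT 2-cell embryo to WT blastocyst the set rose almost as a whole. Of 76 members, 65 rose and 1 fell, while over all genes 70.2% were called, 28.3% higher and 41.9% lower. The median log2 change was 1.66 against -0.51 over all genes. It comprised 41 of 49 large-subunit and 23 of 26 small-subunit genes, and Mrps36. With library totals as the only scaling, 54 rose and 6 fell, with medians of 1.13 and -1.07. The share of all genes called under that scaling is not given here. In simulated data of this design (20943 genes), 16.4% of calls were false and 39% of 4-fold changes were recovered; in the simulated genotype comparisons the false share was 2.06% to 4.05%.

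Mrpl36, the small zinc-binding protein of the large subunit, was at 0.103, 5.60 and 14.2 CPM in WT 2-cell embryos and at 126, 220 and 298 in WT blastocysts. The groups lay far apart, with a log2 change of 5.15 ± 0.45 (adjusted p = 1.08e-16). Mrpl19, homologue of a bacterial protein at the subunit interface, went from 0.821, 11.7 and 19.8 CPM to 66.9, 109 and 204 (3.65 ± 0.45). Mrps31 returned from its 2-cell level to 28.9, 52.6 and 89.9 CPM (3.50 ± 0.48). All 3 had every blastocyst above every 2-cell embryo, as did 34 members in all, a count not made over all genes. Mrpl34, a short bacterial homologue and the member with the highest 2-cell level per length, was the only one called lower: it was at 124, 171 and 289 CPM and then at 54.8, 102 and 227 (-0.81 ± 0.29, adjusted p = 0.0111). The 2 ranges overlapped, and with D707T blastocysts alone its change was -0.15 (adjusted p = 0.786), since the 4 WT blastocysts of that prefix were at 122 to 227 CPM and the 10 of prefix D405T at 54.8 to 130.

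From WT blastocyst to WT ExE, 14 members rose and 22 fell, with 54.7% of all genes called, 31.7% higher and 23% lower. The members' median was -0.27 against 0.16 over all genes. With offsets adjusted for the GC content of the transcripts, an alternative added after the data were seen, the split was 8 higher and 32 lower, with 57.3% of all genes called. WT ExE and blastocyst libraries share no identifier prefix, so stage and prefix cannot be told apart here.

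The steepest falls were of 2 mitochondria-specific proteins of the small subunit, Mrps34 (chromosome 17, 24895116 to 24897502) and Mrps18b (chromosome 17, 35910379 to 35916389; mm10). Mrps34 was at 20.4, 28.999 and 76.05 CPM in WT blastocysts. In the 10 WT ExE libraries it had 3 counts in all, in 3 libraries of 1 count each. Pooled over libraries, its level relative to depth was 1021 times higher in WT blastocysts, with a 95% counting interval of 349 to 4951. Of its exon bases 77.8% also belong to other genes, Mapk8ip3 on the opposite strand and Nme3 on the same strand, and Nme3 had 0 counts in every library. No source used here says how the authors assigned reads shared by such genes, so its low counts may not be its RNA level.

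Mrps18b fell from 56.7, 87.8 and 203 CPM in WT blastocysts to 0.189, 1.81 and 9.81 in WT ExE (-5.09 ± 0.56, adjusted p = 3.01e-12), with no overlap. Of its exon bases 30.5% overlap Gm16279 on the other strand. Mrpl24, homologue of a bacterial protein that starts large-subunit assembly, went from 75.9, 99.8 and 172 CPM to 7.89, 16.1 and 39.6 (-2.57 ± 0.31, adjusted p = 5.41e-11). It too had every ExE library below every blastocyst. Of its exon bases 26.3% overlap Rrnad1 on the other strand.

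Rises at this step were smaller. Mrps18c, the bacterial-type S18 homologue, went from 21.1, 36.8 and 47.8 CPM to 63.2, 84.0 and 167 (1.47 ± 0.29, adjusted p = 1.36e-05). Of its exon bases 23.2% also belong to Gm43511 on the same strand. Mrpl13, a bacterial homologue of the large subunit, went from 128, 180 and 221 CPM to 261, 364 and 854 (1.38 ± 0.25, adjusted p = 2.18e-06). These 2 were the only members with every ExE library above every blastocyst, which was not counted over all genes. Mrpl33 went from 13.0, 37.6 and 54.7 CPM to 50.01, 91.03 and 132 (1.32 ± 0.28), and its ranges overlapped slightly.

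The 3 paralogues of bacterial S18 followed different courses in WT. Mrps18a sits in the large subunit and Mrps18b and Mrps18c in the small one. From oocyte to 2-cell embryo Mrps18c fell (-1.10, adjusted p = 0.0409), and the values of Mrps18a (-0.25, adjusted p = 0.781) and Mrps18b (1.39, adjusted p = 0.140) did not pass. All 3 rose to the blastocyst, by 2.35, 1.96 and 1.88 for Mrps18a, Mrps18b and Mrps18c. From blastocyst to ExE Mrps18b fell and Mrps18c rose, as given above, and Mrps18a had -0.53 (adjusted p = 0.268).

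The summed level of the 77 genes was also followed per library, and a low at the 2-cell stage did not hold for all embryos. WT oocytes had 5131 to 6013 CPM, WT 2-cell embryos 3410 to 7956, WT blastocysts 7985 to 14164 and WT ExE 7687 to 14056. The matKO libraries of these stages had 5258 to 6219, 1529 to 6252, 9455 to 16476 and 7873 to 16480 CPM. The genotypes overlapped at every stage. Within the 2-cell stage the sums differed by library identifier: 6109 to 7956 in the 3 WT embryos 25 to 27, 3410 to 4080 in the other 8 WT embryos, 4118 to 6252 in matKO embryos 37 to 41 and 1529 to 2990 in matKO embryos 42 to 48. The ranges of WT embryos 25 to 27 and matKO embryos 37 to 41 overlapped. WT embryos 25 to 27 were all above every WT oocyte, and the range of matKO embryos 37 to 41 overlapped that of the matKO oocytes. The other 8 WT embryos and matKO embryos 42 to 48 were below all oocytes of their genotype. Of the blastocysts, those of prefix D707T reached 10864 to 14164 (WT) and 10649 to 16476 (matKO), and those of prefix D405T 7985 to 11707 and 9455 to 12089.

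**Figure D2:**
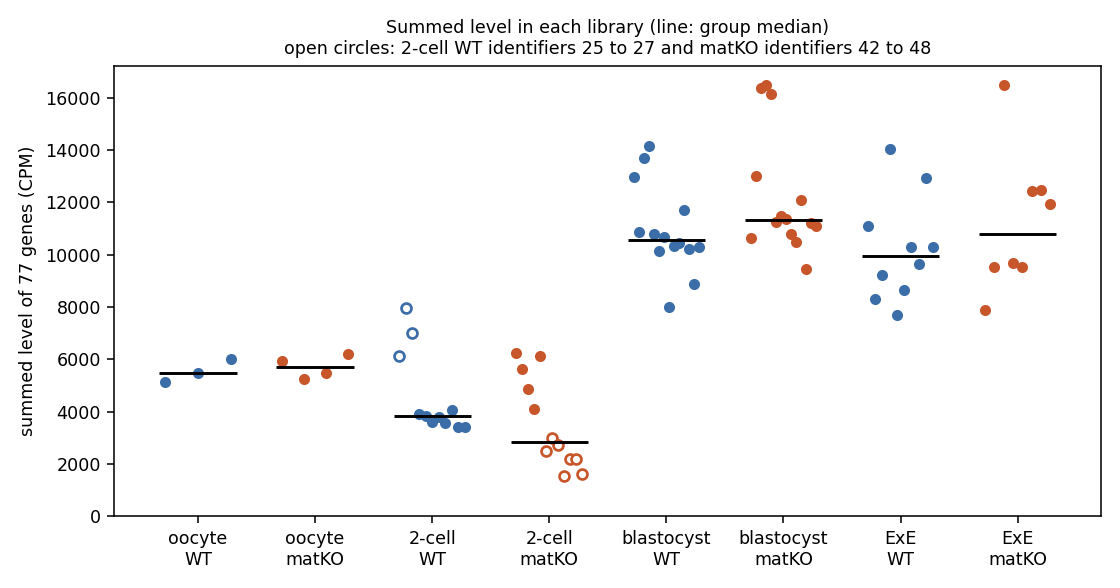
Summed level of the 77 genes in each library (vertical axis, CPM), by stage and genotype, with the group median as a bar. Open circles at the 2-cell stage are WT identifiers 25 to 27, at 6109 to 7956, and matKO identifiers 42 to 48, at 1529 to 2990; WT and matKO overlap at each stage.

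In oocytes no member was called between matKO and WT with edgeR (0 of 76), nor with DESeq2 (0, with 3 unadjusted). With edgeR 4 members had an unadjusted p under 0.05, or 5.26% of those tested against 6.26% of all genes. Over all genes 0.0202% were called. The median log2 difference of the members was 0.10 against 0.02 over all genes. The smallest p belonged to Mrpl2, homologue of a bacterial protein near the peptidyl transferase centre. It was at 61.9, 47.6 and 61.3 CPM in the WT oocytes and at 83.8, 75.8, 80.8 and 126 in the matKO oocytes. All 4 matKO values lay above all 3 WT values, yet the difference of 0.70 ± 0.22 did not pass (adjusted p = 0.763). Mrps18a was at 42.3, 29.6 and 36.1 CPM in WT and 46.7, 49.01, 47.4 and 75.998 in matKO oocytes (0.62 ± 0.24, adjusted p = 0.785). In 3 members all matKO oocytes were above all WT oocytes, and in none below. With 3 and 4 libraries such separation also arises by chance, and its share over all genes was not counted.

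At the 2-cell stage 1 member was called, Mrpl39, which was lower in matKO. Over all genes 0.641% were called, 0.347% lower. At an unadjusted p under 0.05 there were 20 members, 26.3% of those tested, against 14.4% of all genes. The members' median log2 difference was -0.49 against 0.02 over all genes, and 14.5% of members had a positive value against 51.5% of all genes. Large-subunit genes had a median of -0.47 and small-subunit genes -0.59. The 10 cumulus and granulosa markers also differed between the genotypes, with summed levels of 10.1 to 1197 CPM in WT and 5.02 to 32.1 in matKO. Of these markers 2 were at 0 in every WT library (Foxl2 and Amh) and 4 in every matKO library (Cyp11a1, Foxl2, Fst and Inhba). Without WT embryos 25 to 27, whose marker levels lay within the matKO range, the members' median was -0.17 against 0.04 over all genes.

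Mrpl39 (chromosome 16, 84717576 to 84735742, minus strand) encodes a mitochondria-specific large-subunit protein related to threonyl-tRNA synthetase. It was at 15.1, 26.7 and 46.5 CPM in the 11 WT embryos and at 0.187, 5.92 and 21.6 in the 12 matKO embryos. All 12 matKO embryos were below the WT median and 10 were below every WT embryo. The difference was -1.80 ± 0.43 (adjusted p = 0.0438). The call was lost when any 1 of 17 libraries was left out, with adjusted p up to 0.0800, and without the 3 WT embryos 25 to 27 (-1.56, adjusted p = 0.149).

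The matKO embryos with identifiers 42 to 48 stood apart in the members too. With those 7 embryos alone against all WT, 49 members were lower and 0 higher, where 25% of all genes were called, and the median was -1.24. With the 5 embryos 37 to 41 alone, 0 were called by edgeR (11 at an unadjusted p under 0.05, and 0.125% of all genes called) and the median was 0.22. For neither fit is the median over all genes, or their split by direction, given here. In 14 members all of embryos 42 to 48 were below all WT embryos, and in 25 they were all below embryos 37 to 41. How many of all genes separated in these ways was not counted, so neither number is shown to be particular to the members. Mrpl22, for example, was at 8.44, 22.8 and 24.3 CPM in embryos 42 to 48, at 109, 177 and 212 in embryos 37 to 41 and at 41.98, 62.05 and 238 in WT. The identifier ranges were chosen with earlier results of these data known, so these counts describe the libraries.

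Several other measures moved with this split. Embryos 42 to 48 had 1476150 to 4653399 counts in all, the higher 2-cell markers given above, and oocyte markers of 1523 to 2519 CPM against 792 to 1562 in embryos 37 to 41. The 5 markers of the 2-cell stage and the 5 oocyte markers were all detected in both genotypes. Cytosolic ribosomal proteins summed to 8161 to 18551 CPM in embryos 42 to 48, 31980 to 60440 in embryos 37 to 41 and 19702 to 90722 in WT. Nuclear genes of oxidative phosphorylation summed to 2359 to 4413, 5815 to 8747 and 4663 to 8820 CPM. Their part in the members' result was not tested.

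In blastocysts 3 members were called, all higher in matKO and all bacterial homologues. Over all genes 6.13% were called, 2.65% higher and 3.48% lower, so the members' 3 of 76 were near the background. The median was 0.05 against -0.03. Mrpl22, whose bacterial homologue lines the exit tunnel of the nascent chain, was at 105, 159 and 380 CPM in WT and at 194, 302 and 647 in matKO blastocysts. All 14 matKO embryos were above the WT median and the ranges overlapped, with a difference of 0.63 ± 0.12 (adjusted p = 0.00163). Mrpl17, a large-subunit protein near the tunnel exit, was at 271, 389 and 766 CPM and at 442, 626 and 1195 (0.36 ± 0.10, adjusted p = 0.0180). Mrps6, a small-subunit protein of the platform, was at 46.5, 68.2 and 116 CPM and at 78.5, 101 and 160 (0.43 ± 0.12, adjusted p = 0.0228). For both, 14 of 14 matKO values were above the WT median.

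The levels of these genes also differed with the identifier prefix. Mrpl17 was at 271 to 420 CPM in the 10 WT blastocysts of prefix D405T and at 639 to 766 in the 4 of prefix D707T, and in matKO at 442 to 547 (6 embryos) and 520 to 1195 (8 embryos). Within D405T all matKO values exceeded all WT values, and within D707T the genotypes overlapped. Within D405T alone 3 members were called (5.65% of all genes), and Mrps6 had 0.40 (adjusted p = 0.116). Within D707T alone 0 were called by edgeR (8 unadjusted; 1.11% of all genes called), and Mrpl22, Mrpl17 and Mrps6 had 0.47, 0.27 and 0.45. Leaving out WT male replicate 5 put Mrps6 at an adjusted p of 0.0522.

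In ExE 28 of 76 members were called, 23 higher and 5 lower in matKO. Over all genes 26.2% were called, 14.9% higher and 11.4% lower. The members' median was 0.22 against -0.07 over all genes. By role, 17 of 49 large-subunit genes were higher and 4 lower, and 6 of 26 small-subunit genes were higher and 1 lower. Of the bacterial homologues 14 were higher and 4 lower, and of the mitochondria-specific proteins 9 and 1. The genes lower in matKO were Mrps18c, Mrps30 (-0.98), Mrpl13 (-0.76), Mrpl47 (-0.74) and Mrpl21 (-0.65). Exon bases shared with genes on the other strand made up 37.8% of Mrps30 and 24.2% of Mrpl47.

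**Figure D3:**
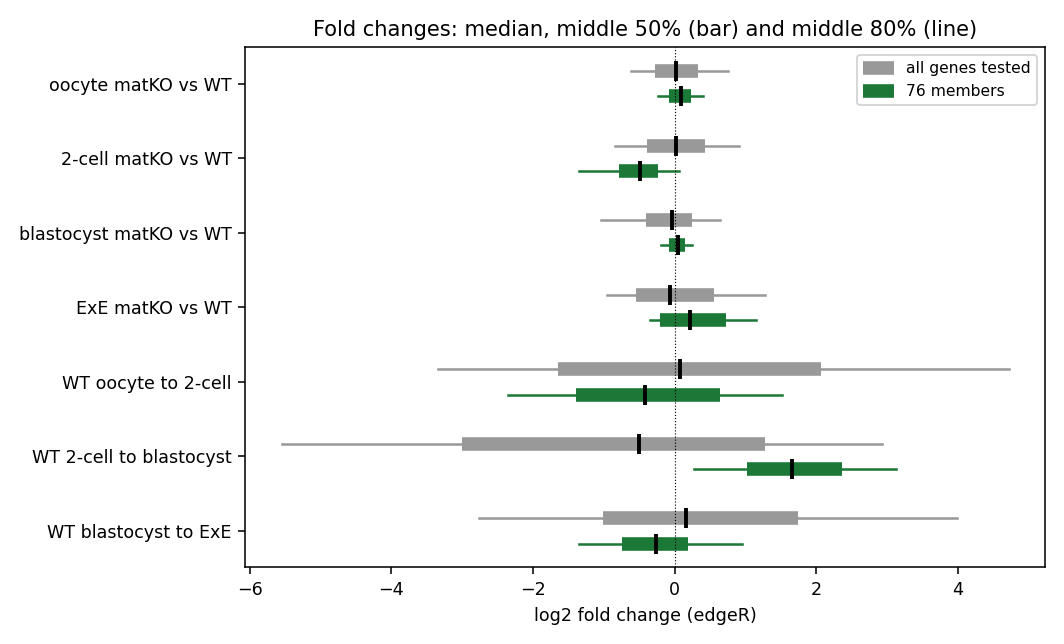
Log2 differences (horizontal axis) of the members and of all genes tested, for the 4 genotype comparisons and the 3 WT stage changes; the black tick is the median, the thick bar the middle 50% and the thin line the middle 80% of genes. Of the 7 comparisons drawn, the medians of members and of all genes lie furthest apart in the WT change from 2-cell embryo to blastocyst, with a median of 1.66 against -0.51.

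Among large-subunit proteins, Mrpl34 was at 30.3, 73.4 and 153 CPM in the 10 WT and at 130, 257 and 344 in the 8 matKO ExE libraries. In 7 of 8 matKO libraries it exceeded every WT library, a difference of 1.81 ± 0.25 (3.51-fold, adjusted p = 2.89e-05). Mrpl2 was at 26.6, 44.8 and 98.0 CPM and at 84.9, 167 and 228 (1.72 ± 0.26, adjusted p = 6.52e-05), again with 7 of 8 above all WT. Mrpl28, a bacterial homologue, was at 126, 191 and 310 CPM and at 297, 416 and 559 (1.15 ± 0.19, adjusted p = 0.000208). Mrpl57, a short mitochondria-specific protein, was at 87.6, 154 and 242 CPM and at 214, 298 and 404 (1.04 ± 0.19, adjusted p = 0.000530). In both, 6 of 8 matKO libraries were above all WT.

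Among small-subunit proteins, Mrps10, a bacterial homologue of the head of the subunit, was at 15.9, 27.05 and 79.2 CPM in WT and at 26.3, 102 and 196 in matKO (1.84 ± 0.30, adjusted p = 0.000134). All but 1 of the matKO libraries exceeded every WT library. Mrps34, with 3 counts over the 10 WT libraries, had 0, 436, 162, 112 and 106 counts in matKO females 1 to 5 and 211, 296 and 3 in matKO males 1 to 3. In CPM these were 0, 26.6, 18.6, 10.8 and 23.04, and 14.5, 32.00 and 0.85. Female 1 and male 3 thus stood near WT and the other 6 well above. Pooled, 1326 counts against 3 gave a ratio of 617 with a 95% counting interval of 211 to 2995, which covers counting error only.

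Mrps18b was at 0.189, 1.81 and 9.81 CPM in WT ExE. In matKO females 1 to 5 it was at 0.72, 91.2, 36.4, 14.6 and 62.8, and in males 1 to 3 at 24.7, 37.5 and 0. The same 6 libraries were above all WT and female 1 and male 3 were not, with a difference of 3.63 ± 0.81 (adjusted p = 0.00362). Its paralogue Mrps18c went the other way: it was at 63.2, 84.0 and 167 CPM in WT and at 29.7, 38.5 and 62.2 in matKO (-1.24 ± 0.25, adjusted p = 0.000928). All 8 matKO libraries were below every WT library. In 2 members all matKO ExE libraries were below all WT libraries, and in 0 were all above. The same was not counted over all genes.

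**Figure D4:**
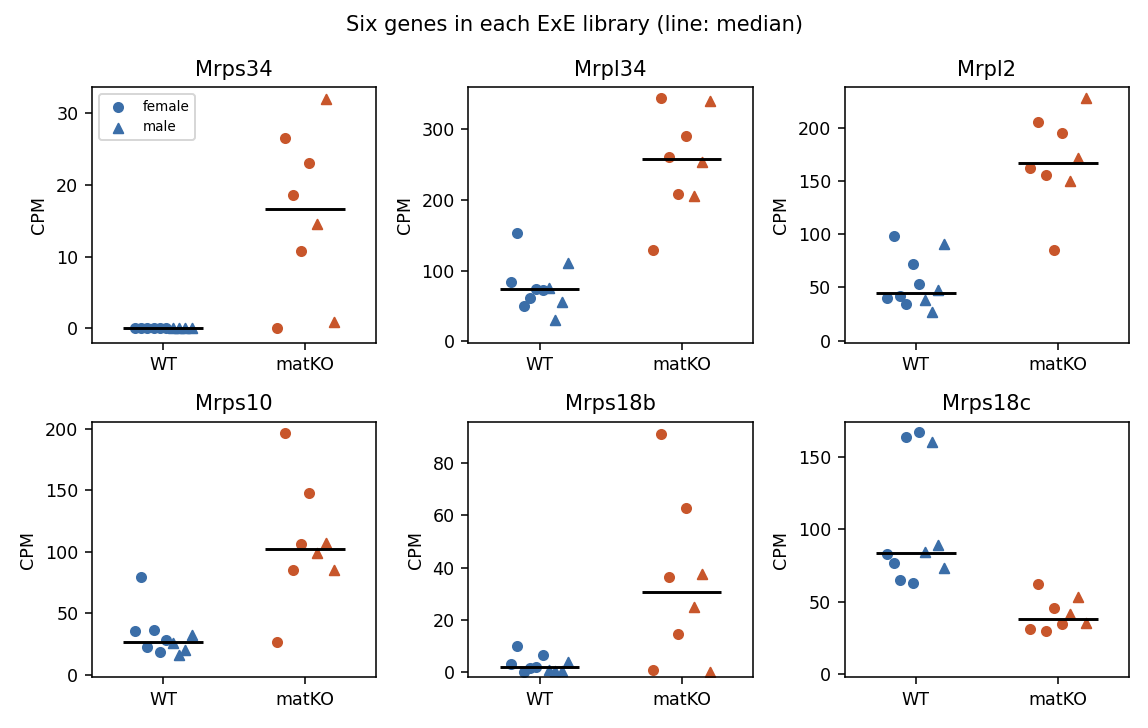
Level of 6 members in each ExE library (vertical axis, CPM), WT and matKO, a panel per gene, with circles for females, triangles for males and the median as a bar. Mrps34 and Mrps18b are near 0 in WT and in matKO female 1 and male 3, and high in the other 6 matKO libraries; every matKO value of Mrps18c is below every WT value.

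The ExE differences followed the GC content of the transcripts. Over 11508 genes with a value, GC content and the log2 difference had a Spearman correlation of 0.47, and over the 76 members of 0.58. Among all genes, the median difference was -0.48 in the tenth of lowest GC content and 0.76 in the tenth of highest. Members called higher had a median GC content of 55.7%, members called lower 45.3% and the others 49.5%. The correlation over all genes was 0.18 for oocytes, -0.04 for the 2-cell stage and -0.01 for blastocysts.

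With GC-adjusted offsets, which were added after the data were seen, 21 members were called in ExE, 18 higher and 3 lower, with 17.6% of all genes called. The members' median was then 0.24 against 0.00 over all genes. Mrpl34 had 1.26, Mrpl2 1.23, Mrps10 1.88, Mrpl28 0.59, Mrpl57 1.498, Mrps18b 3.57 and Mrps18c -0.82, and all of them still passed. Mrpl12, a member of the stalk that also binds the mitochondrial RNA polymerase, and Mrps18a no longer passed.

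**Figure D5:**
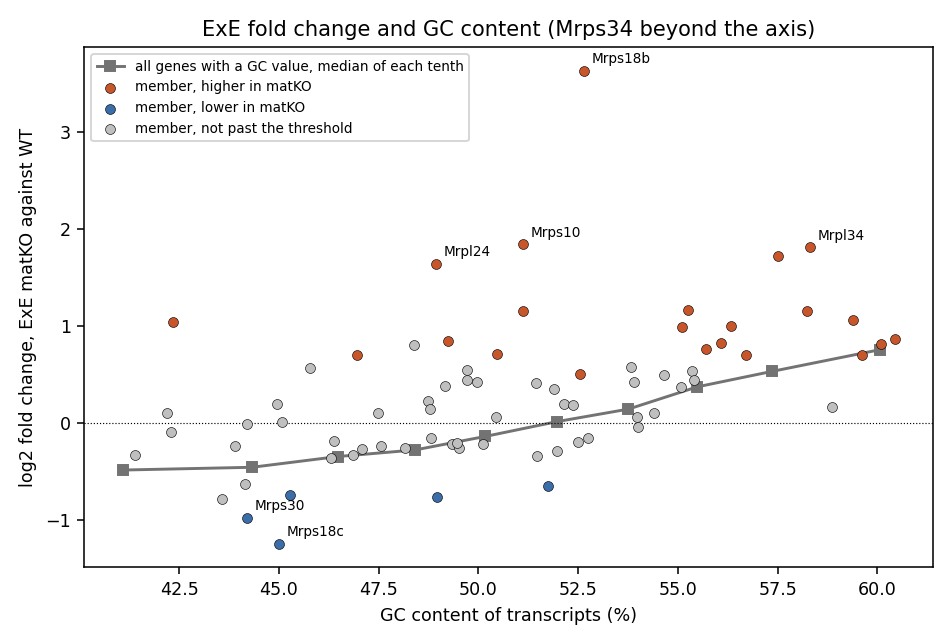
Log2 difference between matKO and WT ExE (vertical axis) against the GC content of the transcript (horizontal axis, percent). Red, blue and grey points are members called higher, called lower and not called in matKO, and the line joins the medians of all genes in 10 equal bins of GC content, from -0.48 in the lowest to 0.76 in the highest; Mrps34 lies above the top of the axis.

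Markers of other cells also differed between the ExE groups. The 12 decidua and uterine stroma markers summed to 52.1 to 368 CPM in WT and 86.1 to 1558 in matKO, the 5 blood markers to 0.116 to 36.02 and 2.61 to 404, the 5 macrophage markers to 2.81 to 10.9 and 10.8 to 45.8, and the 4 epiblast markers to 28.1 to 243 and 84.7 to 904. None of the stroma markers was at 0 in all libraries of a group. Among the blood markers Hbb-y was at 0 in all matKO libraries. The 7 ExE markers summed to 473 to 1451 CPM in WT and 161 to 2206 in matKO, all detected. With only the 4 matKO libraries low in stroma markers (females 1 and 3, males 2 and 3), a choice made after the data were seen, 13 members were called, 11 higher and 2 lower, where 15.3% of all genes were called. Cytosolic ribosomal proteins summed to 126256 to 299700 CPM in WT and 229892 to 556197 in matKO ExE, with 54 of 78 genes higher. The part of these in the members' result was not tested.

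No member's genotype difference was found to differ between females and males. EdgeR and DESeq2 each called 0 members at the 2-cell, blastocyst and ExE stages, where edgeR called 0%, 0.007% and 0% of all genes. The members at an unadjusted p under 0.05 numbered 3, 1 and 0 with edgeR and 6, 1 and 0 with DESeq2. At the 2-cell stage the female minus male value was positive in 92.1% of members, with a median of 0.81, against 49.9% and -0.003 over all genes; here 4 of the 5 embryos 37 to 41 but 2 of the 7 embryos 42 to 48 were female. In ExE it was positive in 18.4% of members, with a median of -0.30, against 46.5% and -0.06 over all genes.

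The stage changes were also counted within the matKO libraries. From oocyte to 2-cell embryo 12 members rose and 35 fell (47.3% of all genes called, 23.7% higher and 23.6% lower), from 2-cell embryo to blastocyst 71 rose and 0 fell (72.5%, 29% and 43.5%), and from blastocyst to ExE 12 rose and 14 fell (48.9%, 30.3% and 18.6%). The medians were -0.64, 2.11 and -0.22, against -0.06, -0.55 and 0.16 over all genes. The last split turned with the scaling, with 16 rises and 11 falls under DESeq2's size factors, 10 and 24 under library totals and 3 and 31 under GC-adjusted offsets. These splits stand without the shares of all genes under the same scaling. The turn therefore cannot be told apart from a change over all genes. Without embryos 42 to 48 the first 2 steps gave 13 rises and 33 falls (51.6% of all genes called), and 65 rises and 1 fall (61.8%).

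The difference between genotypes in these changes was tested in the joint fit, as the matKO change minus the WT change. The joint fit had a sex term and no prefix term. Prefix was not balanced between the genotypes in blastocysts. In WT 10 had prefix D405T and 4 had D707T, and in matKO 6 and 8. From oocyte to 2-cell embryo edgeR called 0 members (8 unadjusted; 0 with DESeq2's size factors; 0.0525% of all genes called, 0.00477% higher and 0.0477% lower). From 2-cell embryo to blastocyst 11 were called, all with a more positive change in matKO (9.02% of all genes called, 4.6% higher and 4.42% lower). Mrpl17 had 1.77 ± 0.32, with a matKO rise of 4.96 from 7.54, 16.4 and 50.4 CPM, and Mrpl39 had 1.90 ± 0.35, with a matKO rise of 3.52. Mrpl13 had 1.24 ± 0.35 (adjusted p = 0.0146). In 9 of the 11 the change was a called rise in both genotypes. Mrpl4 was a called rise in matKO only (0.46 in WT, 1.38 in matKO), and Mrpl34 was the called fall in WT given above, with 0.48 in matKO (adjusted p = 0.129). Without matKO embryos 42 to 48, 2 of these calls were left, Mrpl17 and Mrpl39, and with D707T blastocysts alone 0 (8 unadjusted).

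From blastocyst to ExE 8 members were called, 7 with a higher and 1 with a lower change in matKO (8.83% of all genes called, 5.88% higher and 2.95% lower). Mrps18b fell less in matKO (3.16 ± 0.66, adjusted p = 0.000750), with a matKO change of -1.93. Mrpl24 had 1.77 ± 0.41 (adjusted p = 0.00238): in matKO ExE it was at 3.24, 61.4 and 115 CPM, against 7.89, 16.1 and 39.6 in WT. Mrps34 had the largest fitted difference, whose size depends on the prior count. Mrps18c had -1.46 ± 0.43 (adjusted p = 0.0216), and its matKO change was 0.01. Here too genotype and prefix cannot be told apart.

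Other genes of mitochondrial translation were followed in 4 lists of 70 genes in all: mitoribosomal proteins with other symbols, translation factors, assembly and ribosomal RNA modification factors, and genes of mitochondrial DNA expression. In WT 24 of 68 tested rose and 18 fell from oocyte to 2-cell embryo, 39 rose and 15 fell to the blastocyst, and 13 rose and 27 fell to ExE. The genes of mitochondrial DNA expression differed in direction from the members at the first step, with 9 of 16 higher and 0 lower (15 of 16 positive), and at the second step 5 rose and 8 fell. The translation factors fell with the members at the first step, 8 of 16 against 2 rises, and 12 rose and 0 fell at the second. Between genotypes, edgeR called 0 of 66 in oocytes (3 unadjusted) and 0 of 68 in 2-cell embryos (11 unadjusted). In blastocysts Pprc1, a coactivator of the PGC-1 family, was higher in matKO (0.35 ± 0.10, adjusted p = 0.0289) and Gfm1, an elongation factor of mitochondrial translation, was lower (-0.62 ± 0.16, adjusted p = 0.0173).

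In ExE 13 of the 68 were higher and 11 lower in matKO. By list these were 4 and 0 of 6 mitoribosomal proteins with other symbols, 2 and 3 of 16 translation factors, 6 and 6 of 30 assembly and modification factors, and 1 and 2 of 16 genes of mitochondrial DNA expression. Mpv17l2, which takes part in mitoribosome assembly, was at 8.99, 15.8 and 30.1 CPM in WT and 25.2, 46.5 and 87.5 in matKO (1.61 ± 0.24, adjusted p = 5.81e-05). Rbfa, a maturation factor of the small subunit, was at 9.40, 15.1 and 31.2 CPM and at 35.6, 53.8 and 92.5 (1.70 ± 0.26), with every matKO library above every WT library. Mtg2, a GTPase of large-subunit maturation, was at 3.16, 7.09 and 17.01 CPM and at 14.7, 24.4 and 26.95 (1.66 ± 0.30, adjusted p = 0.000411). For comparison, 36 of 78 nuclear genes of oxidative phosphorylation were higher and 3 lower in matKO ExE.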

How the data were processed

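Single-embryo polyA RNA libraries were deposited by the authors as 4 tables of raw counts per gene, 1 per stage. Per the submitters' processing notes, the authors used Trim Galore, STAR, SAMtools and featureCounts with the mm10 build; no source used here gives their versions, the strand setting or the handling of reads shared by genes or genome sites. Of the deposited count columns, 8 matched no sample label and were not used. All 183 pairs of libraries within a group were compared and differed beyond sampling noise (chi-square per degree of freedom of at least 10.1).

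From these counts, levels were computed as counts-per-million (CPM) with TMM scaling over all 76 libraries, and per kilobase of the deposited gene length. Genes were filtered with filterByExpr (minimum count 10). Tests used edgeR 4.0.16 in R 4.3.3 (estimateDisp, glmQLFit and glmQLFTest, robust), with Benjamini-Hochberg adjustment over all genes tested and a threshold of 0.05. Genotype was tested within each stage with a sex term, and in blastocysts with the identifier prefix. Stage changes and their difference between genotypes came from a joint fit of 76 libraries, with a sex term and no prefix term. The members and all lists, library splits and alternatives were chosen with earlier results of these data known.

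Named members are up to 6 called ones with the smallest p per genotype comparison (with none called, the 2 smallest p), the 3 largest rises and falls per WT stage change with a mean of at least 5 CPM in 1 stage, the 2 highest and lowest per length, the Mrps18 paralogues, and up to 3 per interaction. Members outside this rule that are named (Mrpl12, Mrpl21, Mrpl47, Mrpl53, Mrps30 and Mrps36) were chosen after their values were seen. Of the other mitochondrial translation genes, up to 3 called per genotype comparison are named. The fits were tested on simulated counts with 200 changed genes, which recovered 57%, 51%, 61% and 76% of 4-fold genotype changes in oocytes, 2-cell embryos, blastocysts and ExE. Alternatives were DESeq2 1.42.0, its size factors, library totals, no filter, edgeR without estimateDisp, no sex or prefix term, a replicate block, single prefixes or identifier ranges, GC-adjusted offsets and leaving out each library. Exon overlaps came from the deposited exon coordinates, GC content from GENCODE M21 transcripts and promoters from RefSeq, GRCm38.p6.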

Additional observations from a re-analysis of the deposited data

Results flagged for a closer look

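In 9 of 45 checks of a level within a group of 4 to 10 libraries, the library at an end lay far from its neighbours; chance alone gives this in about 1 of 20 groups. In 2-cell WT female replicate 1, the only female among WT embryos 25 to 27, the summed level of the 77 genes was 6109 CPM. That sum was above the other females of its group. The sum was 5628 CPM in 2-cell matKO male replicate 4, the only male among embryos 37 to 41. It was 16367 CPM in blastocyst matKO male replicate 4. In ExE WT female replicate 2, Mrpl34 was at 153 CPM and Mrps10 at 79.2 CPM. In blastocyst WT female replicate 5, the only WT female blastocyst of prefix D707T, Mrpl22 was at 380 CPM and Mrpl17 at 766 CPM. Blastocyst matKO female replicate 5 had Mrps6 at 160 CPM and blastocyst matKO male replicate 4 had Mrpl17 at 1195 CPM.

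The change from 2-cell embryo to blastocyst was more positive in matKO, by the interaction test, for 11 members, of which Mrpl34 fell in WT. That test had no prefix term. The log2 differences were 1.77 for Mrpl17, 1.90 for Mrpl39, 1.24 for Mrpl13, 0.86 for Mrpl44, 1.98 for Mrps31 and 1.28 for Mrpl34. They were 1.85 for Mrps5, 1.24 for Mrpl47, 1.24 for Mrps35, 1.62 for Mrps18a and 0.92 for Mrpl4. The change from blastocyst to ExE differed for 8 members: 8.78 for Mrps34, 3.16 for Mrps18b, 1.77 for Mrpl24, 1.86 for Mrps10, 1.41 for Mrpl2, 0.95 for Mrpl28, 1.299 for Mrpl34 and -1.46 for Mrps18c. The value of Mrps34 is a fitted one that depends on the prior count.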

How the results depend on the processing

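Of 468 values of single named members under alternatives, 436 kept their direction and their side of the threshold, 32 lost significance and 0 turned direction. Many of these refits differ from the main one by 1 library only. The alternatives that left out no single library gave 221 of the values, of which 207 kept both and 14 lost significance. The count of members called in 2-cell embryos (1) was 4 without estimateDisp, 5 with DESeq2, 49 with matKO embryos 42 to 48 alone and 0 with embryos 37 to 41 alone, without WT embryos 25 to 27 and with GC-adjusted offsets. Mrpl39 kept values of -2.53 to -1.02 under the alternatives that left out no single library. Leaving out single libraries gave 0 to 2 calls (2 without matKO female 1, female 3 or male 4; 0 without any 1 of the other 17, which are all WT embryos but female 2 and matKO females 2, 5 and 6 and males 1, 2, 5 and 6), 2 to 4 in blastocysts, 24 to 32 in ExE and 0 in oocytes. Blastocysts gave 5 with DESeq2 and 0 within D707T, and ExE 13 with the 4 matKO libraries low in stroma markers. The difference between genotypes in the change from 2-cell embryo to blastocyst (11) gave 0 with D707T only and 2 without matKO embryos 42 to 48, and the difference from blastocyst to ExE (8) gave 5 with GC-adjusted offsets. With library totals the latter split 5 higher and 4 lower. The causes were not tested. The main fits used no pairing by replicate number. Correlations of same-numbered libraries ranged from -0.26 to 0.20 in oocytes, -0.24 to 0.38 in 2-cell embryos, -0.13 to 0.49 in blastocysts and -0.36 to 0.14 in ExE. Those over 0.1 were 2 of 3, 3 of 11, 9 of 13 and 1 of 8 pairs, so pairing is not excluded, least of all in blastocysts. With a replicate block 0, 0, 3 and 25 members were called at these stages. The counts in this section stand without the share of all genes called under the same alternative. A change in them therefore cannot be told apart from a change over all genes. The shallowest library had 1049224 counts, at the 2-cell stage; the effect of depth was not tested.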
